A study of Rattus norvegicus with 9 samples.

Results

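The genes described here are 10 components of the circadian clock, measured in the cerebral cortex of newborn rats: the activators Npas2, Clock and Bmal1, the repressors Per1, Per2, Per3 and Cry1, the nuclear receptor genes Nr1d1 and Nr1d2, and the output gene Dbp. They were taken as all probe sets with exactly 1 of these symbols in the platform annotation, which gave 17 of the 31099 probe sets deposited, at least 1 for each of the 10 genes. Each value is the log2 intensity of 1 probe set on 1 Affymetrix rat genome expression array, with 1 array per pup. The pups were Hsd:Sprague Dawley rats of F2b litters, killed on postnatal day 4, with 1 pup taken per litter. The 3 groups of 3 pups belonged to the control (0 ppm), 750 ppm and 2500 ppm lines of a breeding study of dietary 4-methylimidazole (4-MeI), a small nitrogen heterocycle formed when foods brown. The labels describe the exposure of the first generation, in the diet from before mating and through its pregnancies, so the intake behind each pup is not known, and the series title adds maternal seizures without saying in which dams. The labels used here give no sex, no array batch and no time of day of tissue collection.

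In the mammalian clock, CLOCK or its forebrain relative NPAS2 pairs with BMAL1 and binds E-box sequences, which switches on the Per and Cry genes, Nr1d1, Nr1d2 and Dbp. PER and CRY proteins return to the nucleus and block that pair, and the REV-ERB receptors made from Nr1d1 and Nr1d2 repress Bmal1 and Npas2 through response elements that they share with the ROR receptors. In adult tissues with a running clock, transcripts of Bmal1 and Npas2 therefore peak at the opposite time of day from Nr1d1, Dbp and the Per genes, with Cry1 late, and DBP acts on D-box sequences in its turn. Per1 can also be induced by neuronal activity and by glucocorticoids.

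Promoter sequence is shown for the genes whose levels the results turn on (Npas2, Nr1d1 and Dbp), for Bmal1, the target of REV-ERB, and for Per2, which held a D-box. The sequences are RefSeq's for assembly GRCr8, read 5′ to 3′ along the gene from 250 bases before to 50 after the annotated start, with capitals marking a motif match. Of the 10 genes, 9 matched an entry, Nr1d1 and Clock with 2 starts each, so 11 promoters were searched on both strands for the E-box CACGTG, the D-boxes TTATGTAA and TTACGTAA, the ROR and REV-ERB element TAGGTCA and the cAMP response element TGACGTCA.
Npas2, chr9:48959315-48959614 (+ strand): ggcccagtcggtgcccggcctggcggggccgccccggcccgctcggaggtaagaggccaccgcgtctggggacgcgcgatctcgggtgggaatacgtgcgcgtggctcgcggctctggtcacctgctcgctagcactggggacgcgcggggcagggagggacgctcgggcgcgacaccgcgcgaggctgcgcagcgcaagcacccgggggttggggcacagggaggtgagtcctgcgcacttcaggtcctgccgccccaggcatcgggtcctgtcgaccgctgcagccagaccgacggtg
Nr1d1, downstream start, chr10:84229405-84229704 (- strand): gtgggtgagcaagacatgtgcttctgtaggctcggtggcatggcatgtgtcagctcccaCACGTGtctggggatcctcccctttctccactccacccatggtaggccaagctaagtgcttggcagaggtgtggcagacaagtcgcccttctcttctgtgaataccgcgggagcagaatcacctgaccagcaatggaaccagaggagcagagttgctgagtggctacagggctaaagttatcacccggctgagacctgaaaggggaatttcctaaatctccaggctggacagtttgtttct
Dbp, chr1:105312006-105312305 (+ strand): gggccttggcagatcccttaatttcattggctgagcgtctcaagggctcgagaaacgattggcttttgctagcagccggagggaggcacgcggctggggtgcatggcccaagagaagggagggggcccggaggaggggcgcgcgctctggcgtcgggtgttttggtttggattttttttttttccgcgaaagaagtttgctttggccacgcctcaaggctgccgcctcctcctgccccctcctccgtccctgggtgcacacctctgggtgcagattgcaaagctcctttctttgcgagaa
Bmal1, chr1:176766078-176766377 (+ strand): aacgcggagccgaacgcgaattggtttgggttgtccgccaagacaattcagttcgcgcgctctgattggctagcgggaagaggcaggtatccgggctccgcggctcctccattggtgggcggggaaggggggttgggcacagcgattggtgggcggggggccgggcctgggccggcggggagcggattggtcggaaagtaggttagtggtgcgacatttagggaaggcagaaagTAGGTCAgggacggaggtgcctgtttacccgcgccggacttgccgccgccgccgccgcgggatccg
Per2, chr9:99496944-99497243 (- strand): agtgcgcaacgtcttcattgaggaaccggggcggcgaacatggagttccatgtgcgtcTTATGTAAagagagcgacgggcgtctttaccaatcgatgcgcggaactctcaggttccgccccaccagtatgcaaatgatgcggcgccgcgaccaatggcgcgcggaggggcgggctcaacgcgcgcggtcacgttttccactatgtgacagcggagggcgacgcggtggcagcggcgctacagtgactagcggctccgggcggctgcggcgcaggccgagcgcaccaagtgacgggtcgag

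The downstream start of Nr1d1 held an E-box at -191 from it, the Bmal1 promoter held a ROR and REV-ERB element at -16, and the Per2 promoter held the D-box TTATGTAA at -192. No overlap between motifs occurred. Among all 33469 promoter windows of the same length, 6.42% held CACGTG, 2.63% held TAGGTCA, 0.893% held TTATGTAA, 0.12% held TTACGTAA and 1.83% held TGACGTCA, against 1, 1, 1, 0 and 0 of the 11 clock gene promoters. The windows shown for Npas2 and Dbp held none of these letters, which describes only these 300 bases. The only window for Per1 ran from 54304126 to 54304425 on chromosome 10, inside a gene that starts at 54299002. The only window for Npas2, shown above from 48959315, lay inside its gene too, which starts at 48959225. The only window for Per3, up to 166778050 on the - strand, lay inside a gene that starts at 166778243. The counts over the 11 promoters therefore do not cover the starts of the Per1, Npas2 and Per3 genes. The second window for Clock, from 32300295, also lay inside its gene, which starts at 32262747.

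Array medians ran from 7.66 to 7.70 on the log2 scale. Control replicate 3 and 750 ppm replicate 3 stood apart from their groups on the first principal component (35.6% of the variance). Their first scores were -25.2 for control replicate 3, against -9.47 and -8.64 in the other controls, and 14.98 for 750 ppm replicate 3, against -11.3 and -5.97 in its group. Of 8 listed markers of cortical neurons, 6 lay above the filter on dim probe sets described next (Neurod6, Bcl11b, Neurod2, Fezf2, Cux2 and Emx1) and Tbr1 did not. Of 6 listed hypothalamic markers, Avp, Vip and Hcrt lay above it and Six6, Oxt and Pmch did not. Fewer cells of a type and less RNA per cell cannot be told apart in whole tissue. Of the 17 clock probe sets, 12 lay above that filter (a mean log2 value of 6.35), and these covered 9 genes. Both probe sets of Per3, 2 of 4 for Clock and 1 of 3 for Nr1d2 were dimmer. Intensities of different probe sets are not on a common scale, so levels are compared only between groups.

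**Figure D1:**
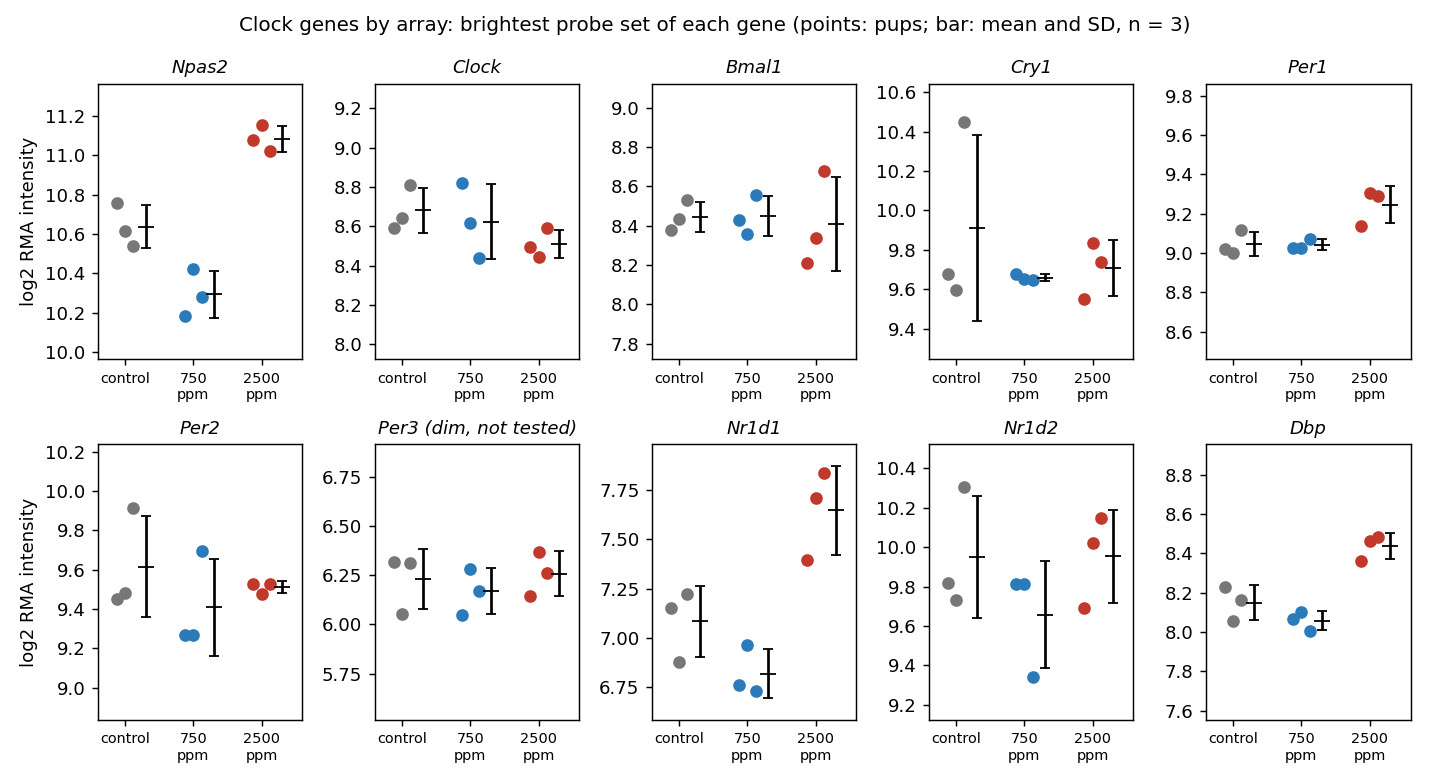
Log2 RMA intensity (vertical axes) of the brightest probe set of each of the 10 clock genes in control, 750 ppm and 2500 ppm pups; points are single arrays and bars give the mean and SD (n = 3). Npas2 forms 3 separate groups, lowest at 750 ppm and highest at 2500 ppm, Nr1d1, Dbp and Per1 lie highest at 2500 ppm, and Cry1 is high in a single control pup.

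Among the activators, Npas2 differed most. Npas2 encodes a PAS-domain factor that replaces CLOCK in much of the forebrain, and the gene lies on chromosome 9 of GRCr8 from 48959225 to 49138036. Its log2 values were 10.75, 10.62 and 10.54 in control pups, 10.18, 10.42 and 10.28 in 750 ppm pups, and 11.08, 11.15 and 11.02 in 2500 ppm pups. No value of one group lay within another, and the order was 750 ppm, control, 2500 ppm, not the order of the diets. At 2500 ppm Npas2 was 0.79 higher than at 750 ppm on the log2 scale, a 1.73-fold difference in intensity (SE 0.082, 95% interval 0.61 to 0.97, n = 3 against 3, limma adjusted p = 0.00869). It ranked number 10 of 21729 probe sets by p in that comparison. Against control, 2500 ppm was 0.45 higher (SE 0.082, limma adjusted p = 0.0521) and 750 ppm was at -0.34 (SE 0.082, limma adjusted p = 0.214), so neither passed the threshold of 0.05.

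The partner genes showed no such separation. Bmal1, which encodes the common partner of CLOCK and NPAS2, had log2 values of 8.38, 8.43 and 8.53 in controls, 8.43, 8.36 and 8.56 at 750 ppm and 8.21, 8.34 and 8.68 at 2500 ppm. The 2500 ppm pups held both the lowest and the highest value of the 9, and all groups overlapped. The difference between 2500 ppm and control was -0.038 with a 95% interval of -0.29 to 0.22, and that between 750 ppm and control was 0.0017 with an interval of -0.26 to 0.26. Clock, on its brightest probe set, had values of 8.59, 8.64 and 8.81 in controls, 8.82, 8.61 and 8.44 at 750 ppm and 8.49, 8.45 and 8.59 at 2500 ppm. Its difference at 2500 ppm from control was -0.17 (95% interval -0.40 to 0.056), and the other probe set above the filter gave -0.068 (interval -0.27 to 0.13). These 2 probe sets had a Pearson r of 0.63 across the arrays, while the 2 dim probe sets of Clock had r between -0.44 and -0.095 with them.

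Nr1d1, which encodes REV-ERB alpha, a haem-binding repressor of Bmal1, was highest at 2500 ppm. It lies on chromosome 10 from 84224599 to 84231812, and the downstream promoter printed above is 1 of its 2 annotated starts. The window of the upstream start, which is not printed, held none of the motifs searched for. Its log2 values were 7.15, 6.88 and 7.22 in controls, 6.76, 6.96 and 6.73 at 750 ppm and 7.40, 7.71 and 7.84 at 2500 ppm. Every 2500 ppm pup exceeded every other pup, while 750 ppm and control overlapped. At 2500 ppm it was 0.83 higher than at 750 ppm, or 1.78-fold (SE 0.13, 95% interval 0.54 to 1.12, limma adjusted p = 0.0398). Against control it was 0.56 higher (SE 0.13, limma adjusted p = 0.0872), which missed the threshold. The call against 750 ppm was also lost with the replicate number as a block (limma adjusted p = 0.0788), in a fit of only the groups compared (0.0862) and without control replicate 1 or 2, 750 ppm replicate 1 or 2, or 2500 ppm replicate 2 or 3 (0.0515 to 0.163), with a difference of 0.74 to 0.90 throughout.

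The related receptor gene Nr1d2 (REV-ERB beta) did not pass in any comparison. Its brightest probe set read 9.82, 9.73 and 10.30 in controls, 9.81, 9.81 and 9.34 at 750 ppm and 9.69, 10.02 and 10.15 at 2500 ppm. Control replicate 3 was the highest of all, and the groups overlapped. The difference between 2500 ppm and control was 0.0048 (95% interval -0.42 to 0.43), and the other probe set above the filter gave 0.076 (interval -0.24 to 0.39). Between 2500 ppm and 750 ppm it was 0.30 (interval -0.12 to 0.72, limma adjusted p = 0.547), and between 750 ppm and control -0.29 (interval -0.71 to 0.13, limma adjusted p = 0.598), the same signs as Nr1d1. The 2 probe sets had a Pearson r of 0.83 across the 9 arrays, but differed in which pup was highest and which was lowest.

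Dbp, which encodes a PAR bZIP transcription factor and is a direct output of the CLOCK and BMAL1 pair, lay with Nr1d1. It is on chromosome 1 from 105312256 to 105317205. Its values were 8.23, 8.05 and 8.16 in controls, 8.07, 8.10 and 8.01 at 750 ppm and 8.36, 8.46 and 8.49 at 2500 ppm. All 2500 ppm pups lay above all others, and control overlapped with 750 ppm. The difference at 2500 ppm was 0.38 against 750 ppm (SE 0.066, limma adjusted p = 0.0611) and 0.29 against control (SE 0.066, limma adjusted p = 0.0895), so Dbp did not pass in either. Against 750 ppm it passed in 6 of 18 alternatives, among them the fit without 750 ppm replicate 3 (0.35, limma adjusted p = 0.0428).

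Among the period genes, Per1 was slightly higher at 2500 ppm and Per2 was not. Per1 encodes a repressor that is also an early response gene, and its values were 9.02, 9.0 and 9.12 in controls, 9.02, 9.03 and 9.07 at 750 ppm and 9.14, 9.31 and 9.29 at 2500 ppm. The 2500 ppm pups lay above all others, the lowest of them by a small margin, at a difference of 0.20 from control (SE 0.065, limma adjusted p = 0.182) and 0.20 from 750 ppm (SE 0.065, limma adjusted p = 0.265). Per2 encodes a core repressor, and its brighter probe set read 9.45, 9.48 and 9.91 in controls, 9.27, 9.27 and 9.69 at 750 ppm and 9.53, 9.48 and 9.53 at 2500 ppm. On this probe set the third replicates of control and of 750 ppm, the arrays that stood apart, were the highest of the 9. The difference between 2500 ppm and control was -0.10 (95% interval -0.43 to 0.22) on this probe set and -0.0099 (interval -0.31 to 0.29) on the other. Without those 2 arrays, a choice made after seeing the data, Per2 on its brighter probe set was 0.24 higher at 2500 ppm than at 750 ppm (limma adjusted p = 0.0417), against 0.10 (limma adjusted p = 0.816) with all arrays. Both probe sets of Per3 were dim, with group means of 5.90 to 6.26, and in a fit without the filter its brighter probe set was at 0.029 for 2500 ppm against control (95% interval -0.19 to 0.25).

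Cry1, which encodes the cryptochrome that gives the strongest and latest repression in the loop, had values of 9.68, 9.60 and 10.45 in controls, 9.68, 9.65 and 9.65 at 750 ppm and 9.55, 9.83 and 9.74 at 2500 ppm. Control replicate 3 was the one high array, and the other 8 lay between 9.55 and 9.83. Its difference from control was -0.20 at 2500 ppm (95% interval -0.64 to 0.23) and -0.25 at 750 ppm (interval -0.69 to 0.19). Without control replicate 3 the first of these was 0.070, with the opposite sign and a limma adjusted p of 0.753.

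**Figure D2:**
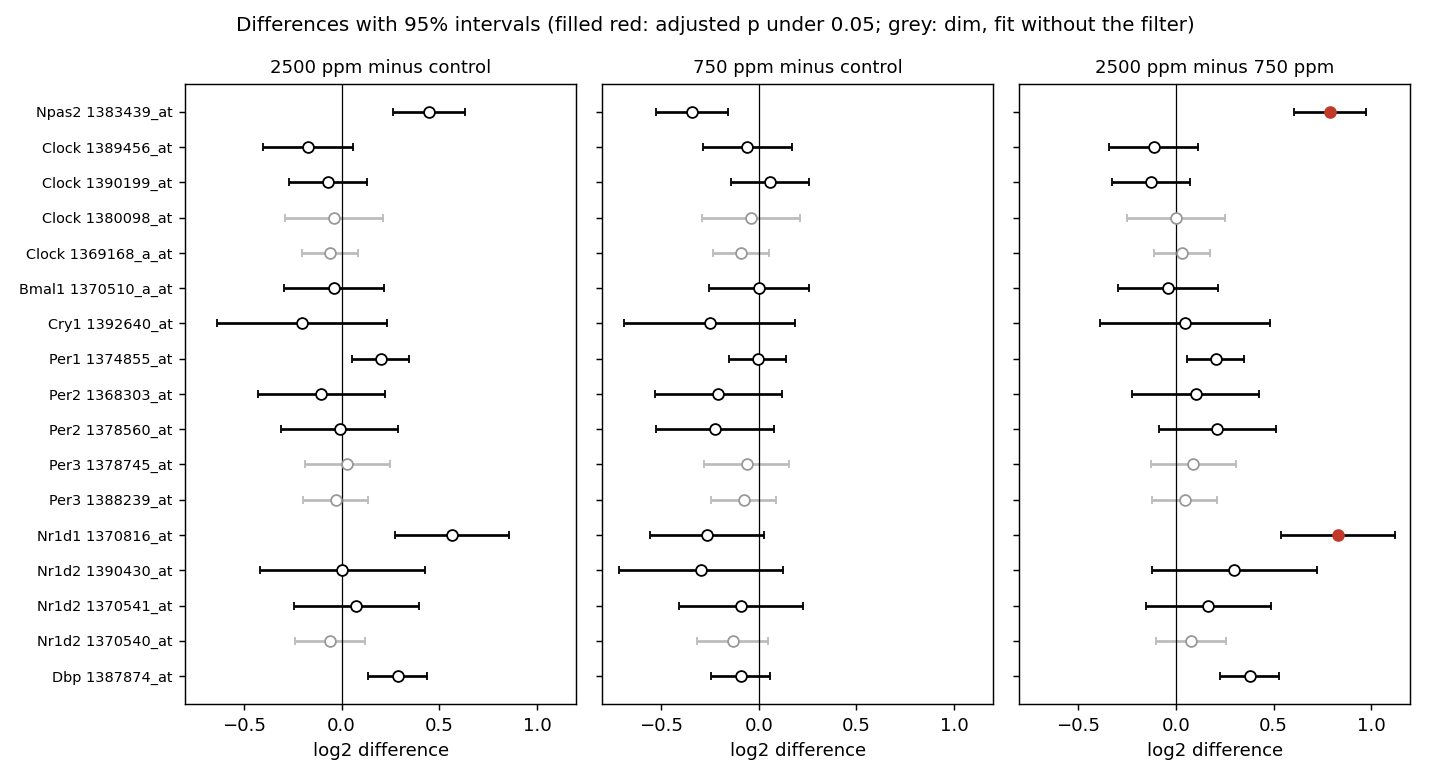
Log2 differences (horizontal axes) with 95% limma intervals for the 17 clock probe sets in 3 comparisons; filled red points passed an adjusted p of 0.05 and grey points are dim probe sets from a fit without the filter. The filled points, Npas2 at 0.79 and Nr1d1 at 0.83, are both in the comparison of 2500 ppm with 750 ppm.

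Counted over the set, 2 of the 12 probe sets above the filter passed in the comparison of 2500 ppm with 750 ppm, both higher, where 0.322% of all probe sets passed and 0.152% passed higher. At 2500 ppm against control 0 of 12 passed in limma, where 0.686% of all probe sets did, and 4 of 12 (33.3%) were higher at an unadjusted p under 0.05, against 6.89% of all probe sets, while 0 were lower, against 9.12%. Those 4, Npas2, Nr1d1, Dbp and Per1, were also the ones with every 2500 ppm pup above every control pup, which 9.87% of all probe sets showed, and 0 of 12 lay wholly below, against 13.4%. At 750 ppm against control 0 of 12 passed in limma, where 0.0092% of all probe sets did, and 1 of 12, Npas2, was lower at an unadjusted p under 0.05, against 4.37% of all, and 0 were higher, against 5.77%. Npas2 was also the 1 probe set with all 750 ppm pups below all controls, against 6.58% of all probe sets, and 0 lay wholly above, against 7.61%. Between 2500 ppm and 750 ppm, 4 of 12 were higher at an unadjusted p under 0.05 (5.25% of all) and 0 lower (7.33%), and 5 of 12 lay wholly above (7.88% of all), Per2 on its dimmer probe set being the fifth, while 0 lay wholly below (9.52%). The 12 probe sets had a median log2 difference of -0.0025 at 2500 ppm against control, of -0.15 at 750 ppm against control and of 0.18 at 2500 ppm against 750 ppm, beside medians of 0.0070, 0.0023 and -0.0063 over all probe sets tested. At 750 ppm, 10 of the 12 lay below control and 2 above, where 50.9% of all probe sets lay above. At 2500 ppm 6 lay above control (52.2% of all) and 9 above 750 ppm (47.9% of all). The counts against control rested on control replicate 3: without it, 6 of 12 lay below control at 750 ppm, with a median of -0.018, and 10 of 12 lay above control at 2500 ppm, with a median of 0.18. Without that array the shares of all probe sets above and below control were not counted, so these counts have no background. These comparisons share arrays, so their counts are not independent of each other.

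The relation between activators and repressors was read across pups. Nr1d1 and Dbp followed each other closely, with a Pearson r of 0.979 (exact permutation p = 3.31e-05, adjusted p = 0.00149 over 45 pairs of genes, n = 9 arrays) and a Spearman rho of 0.967 (exact permutation p = 0.000165, adjusted p = 0.00744). Without 2500 ppm replicates 2 and 3, the 2 arrays farthest from the median of Nr1d1, r was 0.941. Over the 6 pups of control and 750 ppm it was 0.904, and for deviations from the group means it was 0.882, so the relation held among pups of like diet as well as between diets. The permutations over all arrays took no account of diet, and no p was computed for the deviations. Among 16148 other probe sets with 1 symbol, Nr1d1 had the highest r with Dbp, ahead of Pdzrn3 at 0.974 and Cox6a2 at 0.963. Such values were not rare, as 42 of these probe sets had an r above 0.9 with Dbp. In deviations from group means Cox6a2 had an r of 0.925 with Dbp and Pdzrn3 0.846, against 0.882 for Nr1d1. Values on 1 array share the pup, the dissection and the tissue mix, whose part in the relation of Nr1d1 with Dbp was not tested.

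Per1 was related to both over all arrays. Its r was 0.904 with Nr1d1 (exact permutation p = 0.00201, adjusted p = 0.0226) and 0.876 with Dbp (exact permutation p = 0.00292, adjusted p = 0.0263). The Spearman rho was 0.733 (exact permutation p = 0.0311, adjusted p = 0.280) and 0.70 (exact permutation p = 0.0433, adjusted p = 0.323). Over the 6 control and 750 ppm pups r was 0.350 and 0.0875, so the relations over all arrays rested on the 2500 ppm pups. In deviations from group means r was 0.726 and 0.463, and without 2500 ppm replicates 2 and 3 it was 0.647 and 0.576. The genes whose probe sets were most like Per1 were Calhm2, Cux2 and Wdr41, with r of 0.978, 0.969 and 0.956 over the 9 arrays. Cux2 marks upper-layer cortical neurons. In all, 39 probe sets had an r above 0.9 with Per1.

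Phase is a relation over time of day, and with the time of collection unknown a correlation across pups cannot show it; the values for Bmal1 are given as levels that do or do not move together. Bmal1 had an r of 0.064 with Nr1d1 (exact permutation p = 0.868, adjusted p = 0.961) and a rho of -0.183 (exact permutation p = 0.644, adjusted p = 0.794). With Dbp the r was -0.064 (exact permutation p = 0.869, adjusted p = 0.961) and the rho -0.250 (exact permutation p = 0.521, adjusted p = 0.767). The sign was not stable: without the 2 arrays farthest from the median of Bmal1, 2500 ppm replicates 1 and 3, r was -0.491 with Nr1d1 and -0.603 with Dbp, while deviations from group means gave 0.482 and 0.202. Of the 24 pairs of an activator or Cry1 with a repressor or output gene, 18 had a positive r, with a median of 0.21, Npas2 included, and of the 15 pairs among repressor and output genes all had a positive r, with a median of 0.52. Cry1, itself a repressor, had r of 0.051 to 0.719 in its pairs with these genes. Clock had r of -0.31 with Nr1d1, 0.49 with Nr1d2, -0.37 with Dbp, -0.40 with Per1, -0.00032 with Per2 and -0.24 with Per3. Npas2 had an r of 0.899 with Nr1d1 (exact permutation p = 0.00143, adjusted p = 0.0214) and of 0.921 with Dbp (exact permutation p = 0.000904, adjusted p = 0.0203), with a rho of 0.850 (adjusted permutation p = 0.0911) and 0.817 (adjusted permutation p = 0.121). The diet groups of Npas2 did not overlap, and the 2500 ppm pups of Nr1d1, Dbp and Per1 lay above all others. Each r over all arrays among these 4 genes, with its permutation p, therefore includes the differences between diets. Over the 6 control and 750 ppm pups Npas2 had an r of 0.747 with Nr1d1 (exact permutation p = 0.0931) and 0.720 with Dbp (exact permutation p = 0.113). In deviations from group means it had r of 0.17 with Nr1d1, 0.34 with Dbp, -0.50 with Bmal1 and -0.63 with Clock. The group means of 6 of the 10 genes, Npas2, Nr1d1, Nr1d2, Dbp, Per1 and Per3, had the order 750 ppm, control, 2500 ppm. Per1 held it by only -0.0037 at 750 ppm against control and Nr1d2 by only 0.0048 at 2500 ppm against control. Per3 was dim. The share of all probe sets with this order was not counted. The probe sets most like Bmal1 were those of Tspan5, Mindy3 and Ap5s1, with r of 0.953, 0.928 and 0.918.

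**Figure D3:**
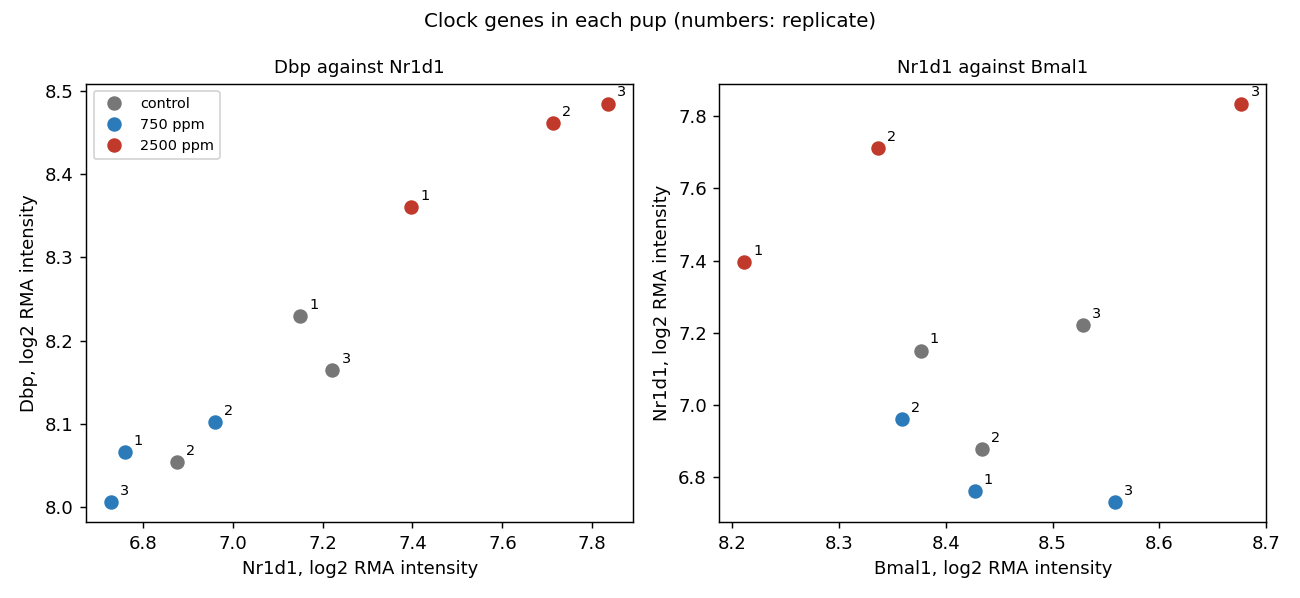
Log2 RMA intensity of Dbp against Nr1d1 (left) and of Nr1d1 against Bmal1 (right) in the 9 pups, coloured by diet and numbered by replicate. Dbp and Nr1d1 lie along a line with an r of 0.979, and Nr1d1 and Bmal1 show none, with an r of 0.064.

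A difference was formed for each array between the mean of Npas2, Clock, Bmal1 and Cry1 and the mean of Nr1d1, Nr1d2, Dbp, Per1, Per2 and Per3, each gene taken relative to its mean over the arrays on the log2 scale. It was -0.0003, 0.105 and 0.059 in control pups, 0.094, 0.0005 and 0.043 at 750 ppm and -0.061, -0.134 and -0.105 at 2500 ppm. The 2500 ppm pups were the lowest 3. With Npas2 left out of the activators, an alternative added after seeing the data, they were at -0.207, -0.270 and -0.175, against -0.034 to 0.227 in the other 6. With Cry1 left out, 1 control (-0.101) lay among the 2500 ppm pups (-0.134 to -0.0029). No test was made of this score, because it is built from genes already described.

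Cry1 and Nr1d2 were related by rank, with a rho of 0.929 (exact permutation p = 0.000816, adjusted p = 0.0184) and an r of 0.719 (exact permutation p = 0.0314, adjusted p = 0.202). The r was 0.535 without control replicate 3 and 2500 ppm replicate 2, and 0.750 in deviations from group means. Cry1 and Per2 had an r of 0.706 (exact permutation p = 0.0601, adjusted p = 0.337) and a rho of 0.150 (exact permutation p = 0.708, adjusted p = 0.797). That r was -0.137 without the same 2 arrays and rested on them, control replicate 3 being highest for both genes.

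**Figure D4:**
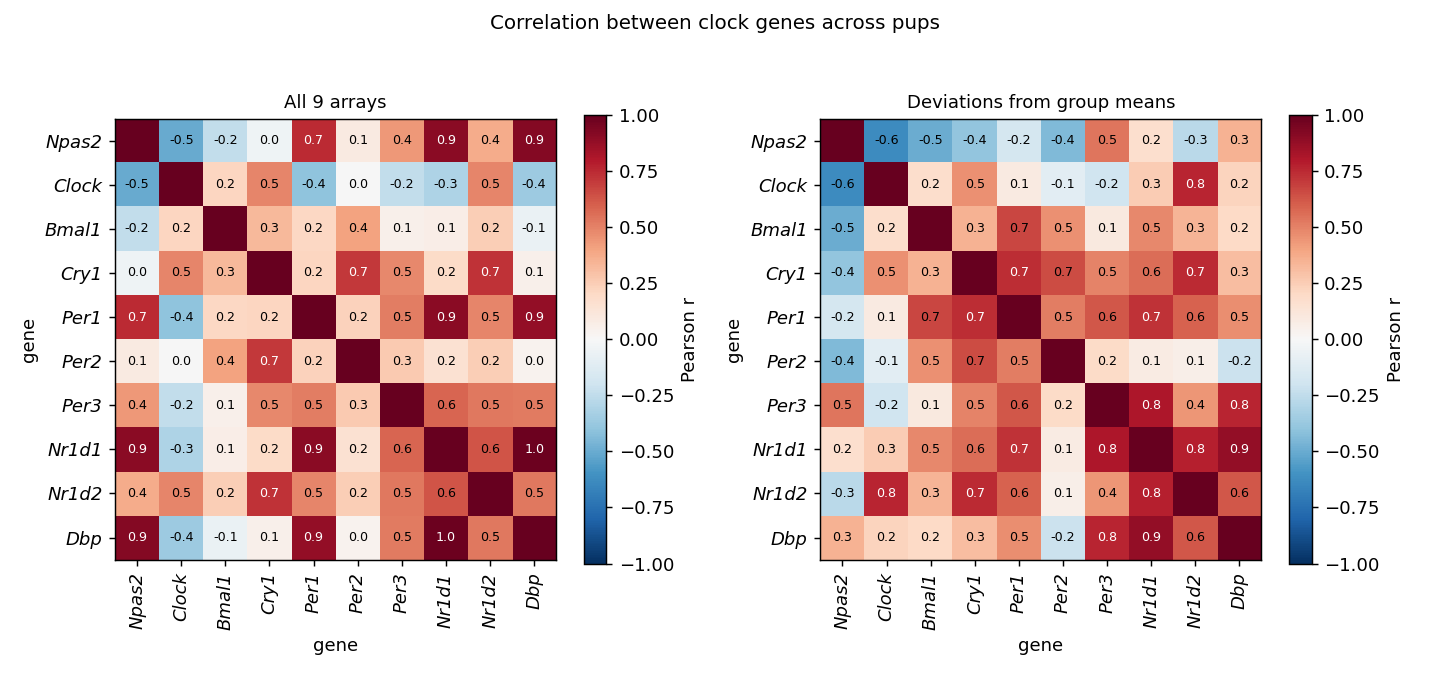
Pearson r between the 10 clock genes (brightest probe set each) over all 9 arrays (left) and in deviations from the 3 group means (right); red is positive and blue negative. Nr1d1, Nr1d2, Dbp, Per1 and Per3, the last from a dim probe set, form a positive block in both. Npas2 has 0.899 with Nr1d1 and 0.921 with Dbp on the left, against 0.17 and 0.34 on the right.

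The spread among pups of 1 diet differed between the clock genes, in part through single arrays. The SD about the group means was 0.28 for Cry1, 0.27 for Nr1d2, 0.21 for Per2 and 0.18 for Nr1d1 on their brightest probe sets, which were at the 96.1, 95.6, 89.3 and 84.5 percentile of all probe sets tested. For Cry1 it was 0.095 without control replicate 3, and for Per2 0.022 without control replicate 3 and 750 ppm replicate 3. It was 0.070 for Dbp and 0.066 for Per1, at the 20.6 and 17.9 percentile, and 0.10 for Npas2, at the 44.8 percentile.

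Other genes of the clock were read from a list of 18, of which 13 had a probe set above the filter. None of the 13 passed in limma in any comparison; before adjustment, with p under 0.05, 2 were down and 0 up at 2500 ppm against control, likewise 2 and 0 at 750 ppm against control, and 0 down and 1 up at 2500 ppm against 750 ppm. Of all probe sets, 9.12%, 4.37% and 7.33% were down and 6.89%, 5.77% and 5.25% up by that measure. Their median log2 difference was 0.019, -0.057 and 0.014 in those comparisons. Rora and Rorb encode the ROR receptors that activate Bmal1 through the element that REV-ERB represses. Rora read 7.89, 7.82 and 7.80 in controls, 7.26, 7.60 and 7.22 at 750 ppm and 7.53, 7.90 and 8.14 at 2500 ppm. All 750 ppm pups lay below all controls, as in 6.58% of all probe sets, at -0.48 (SE 0.15, limma adjusted p = 0.321), and a dim probe set of Rora gave 0.041. Rorb, which also marks layer 4 neurons, was at -0.70 at 750 ppm (SE 0.19, limma adjusted p = 0.256) and at -0.44 at 2500 ppm (SE 0.19, limma adjusted p = 0.305) against control, while its other probe set gave -0.14 and 0.015. Bhlhe40 encodes a repressor of E-box genes and was at -0.74 at 2500 ppm against control (SE 0.30, limma adjusted p = 0.270). Every 2500 ppm pup lay below every control for Bhlhe40, as in 13.4% of all probe sets. The PAR bZIP relatives of Dbp, Tef and Hlf, were at 0.20 and 0.16 at 2500 ppm against 750 ppm (limma adjusted p = 0.494 and 0.683), and Cry2 at 0.00072.

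Markers of tissue around the cortex also differed in the comparisons in which Npas2, Nr1d1 and Dbp stood high. The meningeal markers did so with opposite signs against 750 ppm and against control. The part of these tissues in the results was not tested. All 5 measured choroid plexus genes lay above their 750 ppm level at 2500 ppm (median 1.84), and their mean level relative to all arrays was 0.42 to 1.89 at 2500 ppm, against -0.63 to -0.29 at 750 ppm. Of the 5, only Ttr passed, at 4.33 (limma adjusted p = 0.0300), where 0.322% of all probe sets did, and the smallest difference was 0.016. Of 8 striatal genes all were lower, with a median of -0.68 and relative levels of -0.89 to -0.063 at 2500 ppm, against -0.80 to 0.52 at 750 ppm. Of 10 meningeal genes, 9 were lower, with a median of -0.26 and levels of -0.025 to 0.44 against 0.34 to 0.59, and of 6 cortical neuron genes 4 lay above, at a median of 0.25 and levels of -0.016 to 0.18 at 2500 ppm, against -0.29 to 0.056 at 750 ppm. Emx1, a cortical neuron marker, passed in the same comparison as Npas2 and Nr1d1, at 0.76 (SE 0.11, limma adjusted p = 0.0306). Cux2 was at 0.41 (SE 0.13, limma adjusted p = 0.264). The deep-layer markers differed in sign, with Bcl11b at -0.38 (SE 0.19, limma adjusted p = 0.451) and Fezf2 at 0.41 (SE 0.25, limma adjusted p = 0.543). At 2500 ppm against control the medians were 1.83 for choroid plexus, -1.16 for striatum, 0.86 for meninges, with all 10 genes above control, and 0.048 for cortical neurons. In that comparison 1 gene passed in each of the first 3 lists, where 0.686% of all probe sets did. These were Ttr at 5.67, Tac1 at -1.10 and Aldh1a2 at 0.71 (limma adjusted p = 0.0135, 0.0185 and 0.0185). At 750 ppm against control the medians were -0.011, -0.47, 1.26 and -0.19. The hypothalamic markers above the filter, 3 of 6, had a median of 0.13 at 2500 ppm against 750 ppm.

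Genes of other inputs to Per1 were set beside it. Of 15 measured immediate early genes 0 passed in any comparison, where 3 lay down and 1 up before adjustment (p under 0.05) at 2500 ppm against control (9.12% and 6.89% of all probe sets), with a median of -0.097. Those with the smallest p there were Bdnf at -0.43, Nr4a1 at -0.18 and Nr4a3 at 0.52 (limma adjusted p = 0.192, 0.258 and 0.288). At 2500 ppm against 750 ppm 2 lay down and 1 up before adjustment (7.33% and 5.25% of all probe sets), with a median of -0.047. They were Bdnf at -0.78, Egr4 at -0.19 and Nr4a3 at 0.66 (limma adjusted p = 0.0675, 0.391 and 0.282). Of 13 measured genes of the glucocorticoid response, 1 passed at 2500 ppm against control, where 0.686% of all probe sets did. It was Sult1a1 at 1.22 (limma adjusted p = 0.0295), and the list median was 0.010. The kinase gene Sgk1 was at 0.45 in that comparison (limma adjusted p = 0.0797) and Pdk4 at 0.46 (limma adjusted p = 0.333). At 750 ppm against control 0 of the 13 passed, with a median of 0.011. Sult1a1 was at 1.42 there (limma adjusted p = 0.145), Pdk4 at 0.71 (limma adjusted p = 0.312) and Sgk1 at -0.0030 (limma adjusted p = 0.995). At 2500 ppm against 750 ppm 0 of the 13 passed, with 3 up and 1 down before adjustment (5.25% and 7.33% of all probe sets) and a median of -0.096. The 3 with the smallest p were Sgk1 at 0.46 (limma adjusted p = 0.112), Klf9 at 0.58 (limma adjusted p = 0.137) and Nr3c1, the glucocorticoid receptor gene, at 0.25 (limma adjusted p = 0.328). Each had all 2500 ppm pups above all 750 ppm pups, which 7.88% of all probe sets showed, and a choice by smallest p favours such genes. The group means of Klf9, Nr3c1 and Sgk1 had the order of Npas2. At 750 ppm against control they were at -0.39, -0.12 and -0.0030 (limma adjusted p = 0.383, 0.661 and 0.995). At 2500 ppm Klf9 overlapped with control, at 0.19 (limma adjusted p = 0.529).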

How the data were processed

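Total RNA of postnatal day 4 rat cortex was labelled with the Affymetrix 3' IVT Express kit and hybridised to 9 arrays, 1 per pup, per the labels' protocols. The deposited values are log2 intensities that the authors made with the affy package and RMA (background correction, quantile normalization and probe summary), per the submitters' processing notes; versions are not given in the sources used here. RMA values carry no detection call, and differences near background are compressed. The number of arrays limits the precision.

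The 57 AFFX controls and the 30% of probe sets with the lowest mean were left out, which kept 21729. limma 3.58.1 in R 4.3.3 fitted 1 mean per group to all 9 arrays, with empirical Bayes variances and two-sided p-values adjusted by Benjamini-Hochberg over all probe sets. With 3 arrays a group, the smallest p of an exact permutation test is 0.1. Correlations between genes used the brightest probe set per gene and two-sided exact permutation tests over all orders of the 9 arrays, adjusted over 45 pairs. Arrays were exchanged across diets, so a difference between diets shared by a pair of genes can by itself give a small p. The model was tested on simulated data. Named were all clock probe sets, other clock genes with an unadjusted p under 0.05, the 3 probe sets most like Bmal1, Dbp and Per1, and up to 3 members, by smallest p, of the other lists (immediate early, glucocorticoid, cortex, striatum, meninges, choroid plexus, hypothalamus). Tef, Hlf, Cry2 and Fezf2 were named after their values were seen. Symbols came from the platform annotation, and gene positions from RefSeq's GRCr8 table. The members and lists were chosen with earlier results of these data known. Replicates are pups of different litters. The alternatives tried were other filters, scalings, variance models, array weights, thresholds and probe sets, the replicate number as a block, fits of fewer groups and leaving out arrays.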

Additional observations from a re-analysis of the deposited data

How the results depend on the processing

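With the replicate number as a block, 0, 0 and 1 clock probe sets passed at 2500 ppm against control, 750 ppm against control and 2500 ppm against 750 ppm, and 36 of all probe sets passed in the last, against 0, 0, 2 and 70 without it. The numbers share no stated litter or day: same-numbered pups had correlations of deviations of -0.21 to 0.31, with 3 of 9 above 0.1, and 4 of 9 arrays correlated best with their own number. Npas2 against 750 ppm passed in all 18 alternatives, at 0.73 to 0.85. At 2500 ppm against control, 1 clock probe set (Npas2) passed with the lowest 50% left out, after median-centring, after a second quantile normalization, with a variance trend and in a fit of only the groups compared, 4 with array weights and at an unadjusted p of 0.05, 3 at an adjusted p of 0.10, and 0 to 1 without 1 array. At 750 ppm against control it was 1 with array weights and unadjusted, and 0 without any 1 array. At 2500 ppm against 750 ppm it was 1 in a fit of only the groups compared, and 3 after median-centring, a second quantile normalization, with array weights or at 0.10. With the lowest 50% left out it was 2, Npas2 and Dbp, and Nr1d1, at the 43 percentile of level, was not tested. The count was 4 unadjusted, 4 without the 2 arrays that stood apart (added once the data were known), and 1 to 3 without 1 array. The count over all probe sets, 149 at 2500 ppm against control, was 1495 with array weights, 481 with only the groups compared, 585 at 0.10, 3478 unadjusted, 263 without both arrays, and 9 to 466 without 1. At 750 ppm against control, 2 became 340, 1, 2202 (unadjusted), 71 and 0 to 48. At 2500 ppm against 750 ppm, 70 became 721, 14, 205 (at 0.10), 2733, 1149 and 13 to 731. No clock gene changed sign in a comparison in which any of these fits called it, while values that did not pass crossed 0 in some, such as Bmal1 at 2500 ppm against control in 4 of 18. The median r of activators and Cry1 with repressor and output genes, 0.21, was 0.32 in deviations from group means and 0.38 over control and 750 ppm pups. The activator minus repressor difference moved most without Cry1 (-0.101 in control replicate 3, -0.0029 and -0.0516 in 2500 ppm replicates 1 and 3), with all probe sets averaged (0.0368 in 750 ppm replicate 1, -0.0831 in 2500 ppm replicate 2) and without Npas2 (0.174 in control replicate 3, 0.227, 0.049 and 0.128 at 750 ppm, -0.207, -0.270 and -0.175 at 2500 ppm). The cause of these shifts was not tested. Dim probe sets, among them both of Per3, limit what can be read of those transcripts.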
